A study of Mus musculus with 85 samples.

Results

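Single fetal liver hematopoietic stem cells (HSC) of embryonic day 14.5 were compared with single cells of the hematopoietic clusters of embryonic day 10.5, across all genes of the series' expression matrix. The members were taken from the sample labels alone: 27 samples labelled as fetal liver HSC and 28 labelled as E10.5 clusters, 55 of the 85 samples of the series. Each sample was 1 cell on 1 Affymetrix whole-genome mouse array. The HSC came from the liver of wild-type embryos and were sorted as positive for CD150, c-Kit, Sca-1 and Mac-1 and negative for CD48 and the lineage markers (Lin). The E10.5 cluster cells came from the caudal part of the body of wild-type embryos and were sorted as c-Kit+CD31+CD45+SSEA1- cells. Tissues of both stages were dissociated with collagenase. Stage, tissue and sorting gate all differ between the populations and cannot be told apart. No label names the embryo or litter of a cell, so each population counted as 1 sample, no test was made, and the spreads given are between cells. The arrays of HSC cells 20 and 21 were near copies of each other (Pearson r of 0.991) and were averaged into 1 cell, which left 26 HSC and 28 cluster cells, 54 cells in all.

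Hematopoietic stem cells of the mouse embryo arise from endothelium of the large arteries. The cells that bud off gather in clusters on the vessel wall and contain few stem cells among many precursors and progenitors. These cells seed the fetal liver, where stem cells mature and multiply before they move to the bone marrow. Transcription factors such as Mecom, Gfi1 and Hlf are known for their part in keeping stem cells, while Mpo and Plek mark progenitors that have started toward myeloid and platelet-forming fates.

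The deposited log2 values fell into a low group near the array's floor and a high group, and a value above 5 on the log2 scale was taken as above background. Of all values in the 54 cells, 18.4% lay above 5 and 1.05% between 5 and 6. A gene counted as measured where at least 3 of the 54 cells were above background, which 10012 genes were. Fewer probe sets were above background in HSC (4750 to 8489 per cell, median 6582.5) than in E10.5 cluster cells (8244 to 11487, median 9967), and 1 HSC and 3 cluster cells lay in the overlap. Among the probe sets above background, the median signal was alike, at a median over cells of 9.71 in HSC and 9.68 in cluster cells. Fewer transcripts per cell and poorer recovery of RNA in the HSC arrays cannot be told apart in these data.

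The genes of the sorting gates gave a check of the labels. Slamf1, which encodes CD150, was above background in 10 of 26 HSC and in 1 of 28 cluster cells. Pecam1, which encodes the CD31 used to sort clusters, was above background in 5 HSC and 20 cluster cells, and Kit in 25 HSC and 27 cluster cells. Cd48, whose product the HSC gate excludes, was above background in 2 HSC and 9 cluster cells. Both gates also had genes that went against them: Itgam, of the Mac-1 antigen used to sort HSC, was above background in 1 of 26 HSC, and Fut4, a fucosyltransferase gene known for its part in making the SSEA1 antigen that the cluster gate excludes, in 1 HSC and 10 of 28 cluster cells. None of the 12 hepatocyte genes on the array was measured, and Alb was above background in none of the 26 HSC, which allows a share of up to 11.5% (3 counts of 26). Afp, a fetal liver plasma protein gene, was above background in HSC cells 1 and 4. HSC cells 5 and 7 stood apart: both held Lyve1 (15.05 and 14.73) and Stab2, genes of sinusoidal endothelium, which no other HSC and no cluster cell held. Xist was above background in 1 of 26 HSC and 14 of 28 cluster cells.

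Relative to E10.5 cluster cells, 535 of the 10012 measured genes (5.34%) had a mean in HSC higher by at least 1 log2 unit, and 5939 (59.3%) had one lower by as much. The median difference over all measured genes was -1.47. This split depended on the scaling: after quantile normalization 2141 genes were higher and 2824 lower in HSC, and with every cell brought to the same mean over the measured genes, which adds 1.56 to every difference, 3113 were higher and 2939 lower. Each of the 3 scalings tried moved the median difference upward, so none bears on the 535 higher genes. Of the 5939 lower genes, 2449 remained lower under each of the 3. Named genes that did not include Runx1, Spi1, Cebpa, Gfi1b, Klf1, Max, Itga2b, Alox5, Prtn3, Ldha, Hmga2, Lin28a and Cdkn1a. Pecam1, Cd48, Fut4, Rbpms, Adgrg1, Ifngr1, Ifnar2, Ifi35, Npm1 and Myb did not either. The larger differences lay on the lower side, with 29 genes higher and 910 genes lower by 4 log2 units or more. Differences below are given as deposited, to be read against the median of -1.47. Counts of list genes are to be read against the 5.34% higher and 59.3% lower of all genes. The lists were chosen with earlier results of these data known.

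Genes were also compared by the share of cells in which they were above background. A gene was called switched on in HSC where at least 80% of HSC and at most 20% of cluster cells were above background, and switched off in the reverse case. By this measure 4 genes (0.04%) were switched on, and 70 (0.699%) were switched off. The 4 were Mecom, Hlf, Chd3 and Lgals3bp. In no gene did every HSC exceed every cluster cell, and in 4 genes (0.04%) every HSC lay below every cluster cell. When only the 4750 brightest probe sets of each cell were counted as detected, 8 genes were switched on and 16 switched off in HSC.

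**Figure D1:**
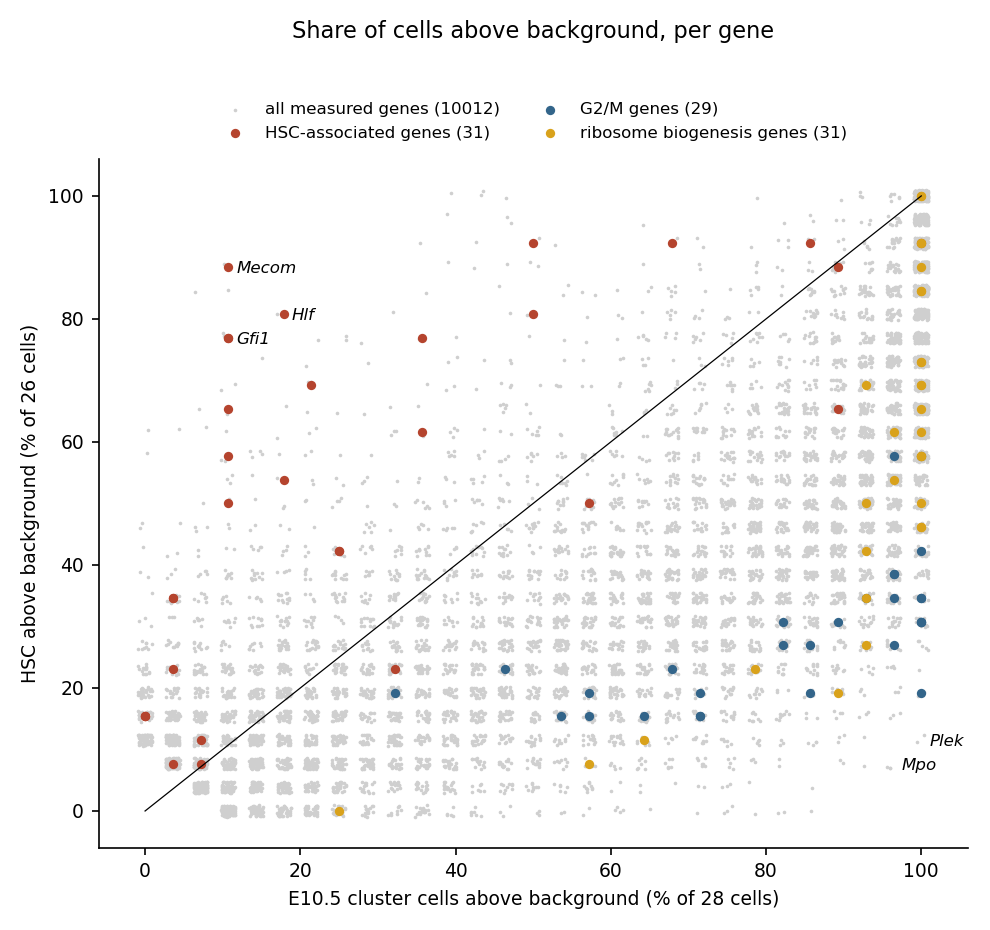
Each point is 1 of the 10012 measured genes, placed by the percentage of the 26 HSC (vertical axis) and of the 28 E10.5 cluster cells (horizontal axis) above background, with a small random offset for the grey points. Mecom, Gfi1 and Hlf lie near the upper left corner, while Plek and Mpo and most of the 29 G2/M genes lie at the lower right.

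The transcription factor Mecom had the largest difference in favour of HSC. Its signal ran from a lowest of 2.33 to a median of 11.32 and a highest of 13.47 in HSC, against a lowest of 2.19, a median of 2.30 and a highest of 11.85 in cluster cells. It was above background in 23 of 26 HSC (88.5%, exact 95% interval 69.8% to 97.6%) and in 3 of 28 cluster cells (10.7%, 2.27% to 28.2%), with means of 10.18 ± 3.25 in HSC and 3.18 ± 2.66 in cluster cells (SD, n = 26 and 28). The intervals are Clopper-Pearson intervals and cover counting error over cells only. In the cells where Mecom was above background its mean signal was close, 11.20 in HSC and 10.59 in cluster cells, so the populations differed in the number of Mecom-positive cells more than in the level per positive cell. The probe set used was the only one of 3 for Mecom above background in any of these cells.

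Gfi1, a transcriptional repressor that restrains stem cell division in the mouse, had a median of 11.80 (2.31 to 14.41) in HSC and of 2.30 (2.21 to 14.21) in cluster cells. It was above background in 20 HSC and 3 cluster cells. The related repressor Gfi1b, better known from erythroid cells and megakaryocytes, went the other way, with 7 HSC and 17 cluster cells above background. Only Gfi1 was above background in 16 of the 26 HSC, only Gfi1b in 17 of the 28 cluster cells, and both in 4 HSC and no cluster cell. This pair was chosen after its values were seen.

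Ifitm3, an interferon-induced membrane protein that hinders virus entry, was above background in all 26 HSC, at 12.63 ± 1.35, and in 12 of 28 cluster cells, at 6.19 ± 4.48 (mean ± SD over all cells). The lowest HSC stood at 8.31, while more cluster cells lay below background than above it. The adhesion receptor Adgrl4 was likewise above background in all 26 HSC (8.37 to 12.30) and in 11 of 28 cluster cells (2.19 to 11.20). Calcrl, the receptor for adrenomedullin, was above background in all 26 HSC and 12 cluster cells, with a difference of 4.75.

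**Figure D2:**
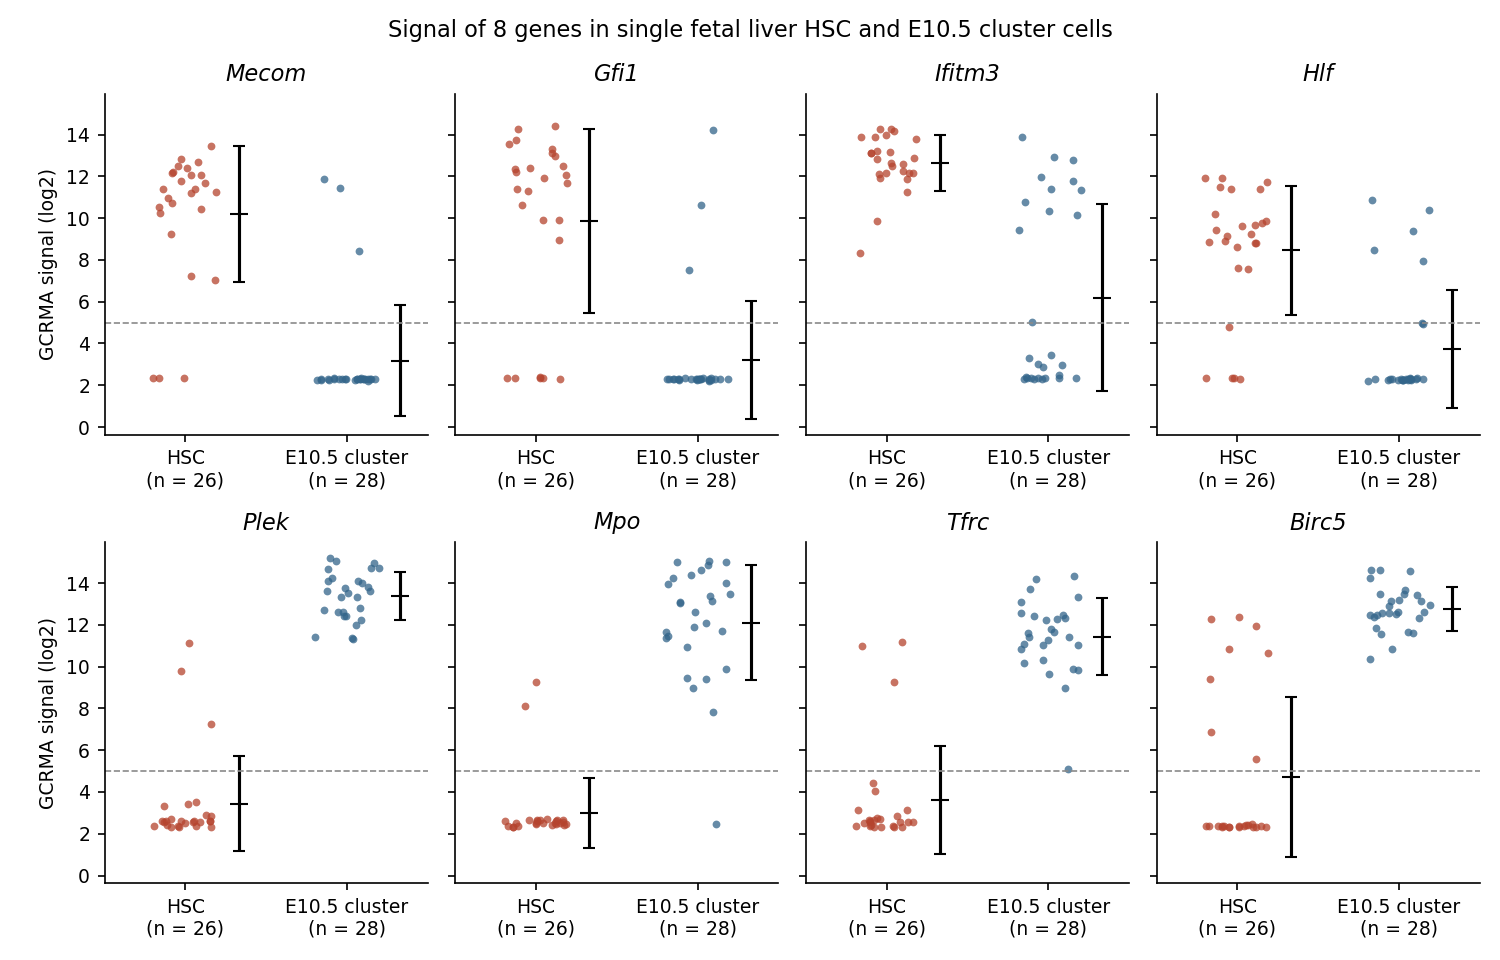
Each point is 1 cell: the GCRMA signal on the log2 scale for 26 HSC (left in each panel) and 28 E10.5 cluster cells (right), with the mean and SD as bars and the background of 5 as a dashed line. Mecom and Gfi1 sit near the floor in all but 3 cluster cells each, and Plek is near the floor in 23 of 26 HSC and above 11 in every cluster cell.

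The other genes among the 15 with the largest differences in favour of HSC ranged from 4.62 to 5.85 log2 units. Hlf, a leucine zipper factor of long-lived stem cells, was above background in 21 HSC and 5 cluster cells. Procr, the endothelial protein C receptor used to sort stem cells, was above background in 17 HSC and 3 cluster cells, and Pdzk1ip1, which encodes a small membrane protein, in 20 HSC and 3 cluster cells. Chd3, a nucleosome remodeller, and Lgals3bp, a secreted glycoprotein, were each above background in 22 HSC, against 3 and 2 cluster cells. Mndal, of the interferon-inducible p200 family, was above background in 16 HSC and no cluster cell, which puts its difference at 2.72 log2 units at least; its probes may also bind other members of that family. Cd24a, Retreg1, AI662270 and Gimap8 completed the group, with 20 to 25 HSC and 6 to 13 cluster cells above background.

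Of 31 measured genes long associated with stem cells, 21 (67.7%) were higher and 2 (6.45%) lower in HSC. The shares over all genes were 5.34% and 59.3%. The list's median difference was 2.23, against a median of -1.47 over all genes. Since the list was chosen with earlier results of these data known, these counts are a description and no independent support. After quantile normalization 24 of the 31 were higher and none lower. That scaling moved differences upward at large (2141 genes higher, against 535), so it is no check of this list. The median of the list was 1.27 with all probe sets of a gene averaged and 0.26 with the median over cells in place of the mean. Besides Mecom, Gfi1, Procr, Pdzk1ip1 and Hlf, the tumour necrosis factor receptor family member Cd27 (4.04), the junction protein Esam (3.94), the proto-oncogene Mycn (3.63), the transglutaminase Tgm2 (3.29) and von Willebrand factor, Vwf (3.24), were higher in HSC. The 2 lower genes were Rbpms (-2.29) and Adgrg1 (-1.23), and Adgrg1 turned to 0.20 after quantile normalization. Meis1 (0.03), Prdm16 (0.13), Tek (0.40) and Angpt1 (0.55) did not reach 1 log2 unit in either direction; Meis1 and Angpt1 were above background in most cells of both populations.

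Per cell, 7 to 22 of these 31 genes (median 16.5) were above background in HSC and 4 to 20 (median 7.5) in cluster cells. By the mean signal of the list, 5 HSC lay above every cluster cell and 15 cluster cells below every HSC. Mecom, Hlf, Gfi1, Procr, Pdzk1ip1 and Hoxa9 were then counted together in each cell, a choice made after their values were seen. All 6 were above background in 9 of 26 HSC, and at least 5 in 18. No cluster cell held more than 4, 1 cell held 4, and 17 of 28 held none. The 2 HSC that held none were cells 5 and 7, the cells with Lyve1 and Stab2.

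**Figure D3:**
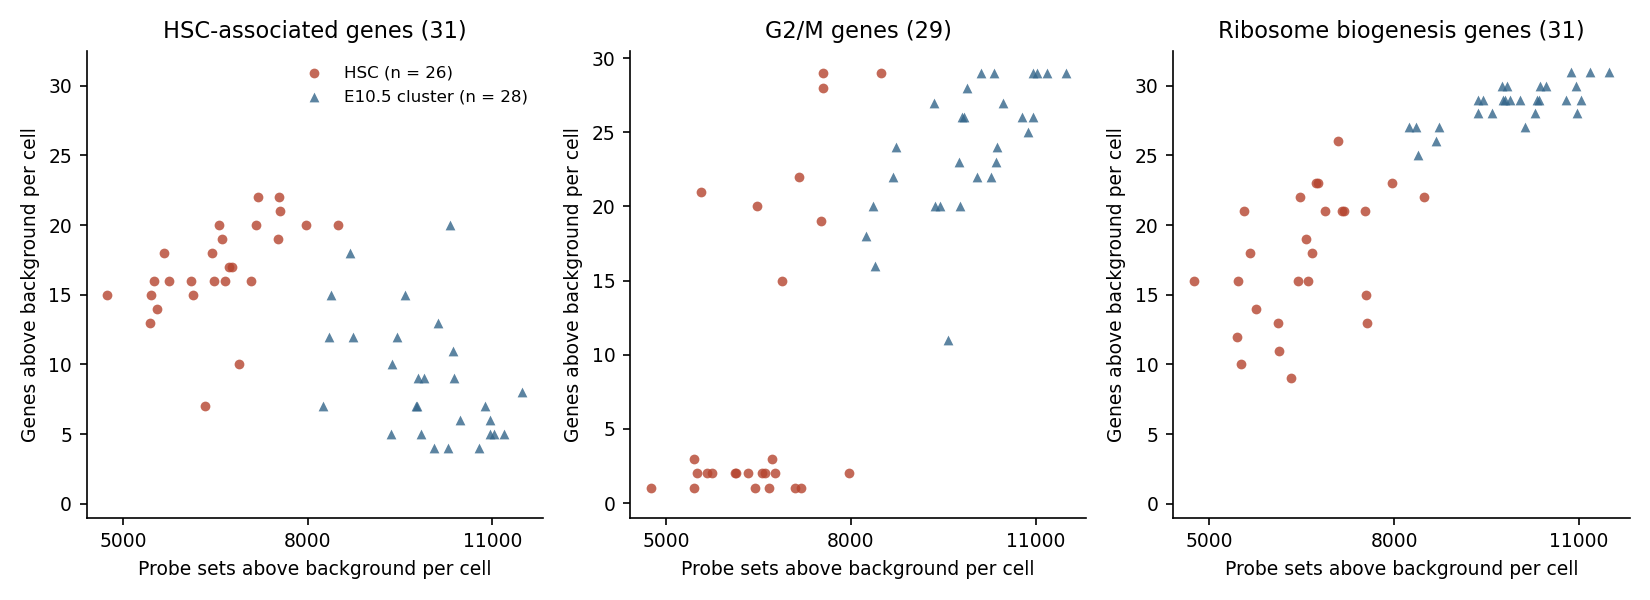
Each point is 1 cell, with the number of its probe sets above background on the horizontal axis and the number of list genes above background on the vertical axis; circles are HSC and triangles E10.5 cluster cells. HSC hold more HSC-associated genes although fewer of their probe sets are above background, and their G2/M genes split into 18 cells with at most 3 and 8 cells with at least 15.

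Hox genes set position in the embryo, and those of the A cluster are used by stem cells. Of 11 measured genes of Hox and their Meis and Pbx partners, 4 (36.4%) were higher and 1 (9.09%) lower in HSC. Over all genes the shares were 5.34% and 59.3%. The median of these 11 was 0.82, and 0.066 with the median over cells. Hoxa9 was above background in 19 HSC and 4 cluster cells, a difference of 4.40. Hoxb3 was above background in 12 HSC and 1 cluster cell (2.94), and Hoxa10 and Hoxb6 in 7 and 5 HSC and in no cluster cell. The partner Pbx3 was lower in HSC, at -2.85.

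Interferon-response genes had 12 of 26 measured members (46.2%) higher and 4 (15.4%) lower in HSC, and their median was 0.98. All genes had shares of 5.34% and 59.3%. The carriers of the list were Ifitm3 and Ifitm1, followed by Ifit2 (15 HSC and 6 cluster cells above background), the guanylate-binding protein Gbp3 (10 and 4), the antiviral enzyme gene Rsad2 (7 and 1) and the interferon regulatory factor Irf7 (8 and 0). Of those named, Gbp3, Rsad2 and Irf7 were above background in a minority of HSC, and Ifitm3, Ifitm1 and Ifit2 in a majority. The 4 lower members were the receptor genes Ifngr1 (-1.13) and Ifnar2 (-1.44) and the interferon-induced genes Ly6e (-2.80) and Ifi35 (-1.53). The third receptor gene, Ifnar1, was at -0.15, though Ifngr1 turned to 1.14 after quantile normalization and all 3 receptor genes would be above 0 with equal means. The median over cells in place of the mean brought the list to 0.07.

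Promoters were read from RefSeq on build GRCm38.p6, as the 250 bases before the start site, to describe where a known element of such genes lies. An interferon-stimulated response element, searched as GAAA, any 2 bases and GAAA on both strands, was found in 8 of the 21 list genes with a promoter in the table (38.1%) and in 3.46% of all 27025 genes. Among measured genes the share was 3.04%. The median difference was 0.90 in the list genes with a match and 1.60 in those without one. Promoters of Gbp3 (chr3:142559794-142560043, plus strand) and Rsad2 (chr12:26456453-26456702, minus strand) are shown as examples of list genes higher in HSC in which the element was found, with the element in capitals.
Gbp3: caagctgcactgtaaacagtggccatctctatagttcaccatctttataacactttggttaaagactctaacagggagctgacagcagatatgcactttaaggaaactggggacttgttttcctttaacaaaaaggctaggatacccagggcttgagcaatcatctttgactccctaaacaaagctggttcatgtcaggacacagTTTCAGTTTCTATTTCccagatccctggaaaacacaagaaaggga
Rsad2: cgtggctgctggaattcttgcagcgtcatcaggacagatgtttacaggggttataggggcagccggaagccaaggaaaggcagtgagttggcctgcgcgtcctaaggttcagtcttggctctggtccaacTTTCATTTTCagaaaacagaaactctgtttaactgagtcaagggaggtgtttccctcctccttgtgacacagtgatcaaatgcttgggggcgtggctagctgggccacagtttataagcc
In Gbp3 the element occurs as overlapping matches, beginning at positions -45 and -39 from the start site, and in Rsad2 it begins at -120. A match is a description of the sequence and not a measured binding site.

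Genes of antigen presentation by MHC class I showed no common direction. Of 14 measured genes, 5 (35.7%) were higher and 4 (28.6%) lower in HSC, against 5.34% and 59.3% of all genes. Their median of -0.21 became 1.28 after quantile normalization. The transactivator Nlrc5 was above background in 7 HSC and in no cluster cell, and the immunoproteasome gene Psmb9 in 10 HSC and 4 cluster cells. The class I heavy chain genes H2-K1 (-0.26) and H2-D1 (-0.15) and the light chain B2m (0.02) were above background in every cell of both populations. Calr, a chaperone of the peptide-loading complex, was lower in HSC, at -4.43.

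Imprinted genes are expressed from 1 parental allele and linked to growth and to stem cell dormancy. Of 16 measured, 7 (43.8%) were higher and 3 (18.8%) lower in HSC, against 5.34% and 59.3% of all genes. Their median was 0.74, and 0.063 with the median over cells. Meg3, a long noncoding RNA of the Dlk1 locus, was above background in 15 HSC and in no cluster cell, which puts its difference at 1.98 log2 units at least. Igf2, a fetal growth factor, was above background in 25 HSC and 11 cluster cells, and its receptor gene Igf2r in 16 and 6. Where Igf2 was above background its mean was lower in HSC, 10.21 against 12.46 in cluster cells. Cdkn1c, an inhibitor of cyclin-dependent kinases, differed by 1.27, with 11 HSC and 7 cluster cells above background.

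Among the genes lower in HSC, Plek had the largest difference. Plek encodes pleckstrin, a protein kinase C substrate of platelets and leukocytes. Its signal was at most 11.12 in HSC, with a median of 2.60, and ran from a lowest of 11.32 to a median of 13.58 and a highest of 15.23 in cluster cells, so the populations did not overlap. It was above background in 3 of 26 HSC and all 28 cluster cells, a difference of -9.95. The other probe sets for Plek gave -9.15 and -5.25.

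Mpo, the myeloperoxidase of granulocyte precursors, was above background in 2 of 26 HSC (7.69%, 0.946% to 25.1%) and in 27 of 28 cluster cells (96.4%, 81.7% to 99.9%). Its median was 2.52 in HSC, against 12.84 in cluster cells, and the difference of means was -9.12. The cluster cell without Mpo stood at 2.49, in the range of the HSC. Of 20 measured myeloid genes, 12 (60%) were lower in HSC, against 59.3% of all genes, and 1 was higher. Their median of -1.59 was also near the median over all genes. Within the list, the Fc receptor gene Fcgr3 was above background in no HSC and 21 cluster cells, a difference of at least 4.22 log2 units in size, the signalling chain gene Fcer1g in 4 and 27, and the adaptor gene Tyrobp in 8 and 27. The Fc receptor gene Fcgr2b was above background in 1 HSC and 5 cluster cells, with a difference of 0.35. Among granule genes Prtn3 was above background in 22 HSC and 27 cluster cells (-2.38) and Lyz2 in 23 HSC and 22 cluster cells (1.35). Elane was above background in no HSC and 3 cluster cells, and Ctsg in no cell of either population.

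Tfrc, the transferrin receptor that brings iron into dividing and erythroid cells, was above background in 3 HSC and all 28 cluster cells. Its mean was 3.61 ± 2.59 in HSC and 11.43 ± 1.84 in cluster cells. The size depends on the probe set: the other 5 for Tfrc were above background in no HSC and in at most 11 cluster cells, and gave differences of -2.60 to -0.04. Of 15 measured erythroid and iron genes, 11 (73.3%) were lower in HSC, against 59.3% of all genes, and 1, Car2, was higher. The list median of -1.68 was near the -1.47 over all genes and became -0.69 after quantile normalization. The heme enzymes Fech (-3.70) and Alad (-3.94) were lower in HSC, and the erythroid factors Gata1 and Klf1 were above background in no HSC and in 10 and 7 cluster cells.

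Beside Mpo, Plek, Tfrc and Alox5, the 10 switched-off genes with the largest difference in share were Tubb6, Letm1, Tspoap1, Coro2a, Tuba8 and Trim13. Tubb6 and Tuba8, which encode tubulins, were above background in 2 and 0 HSC and in 27 and 23 cluster cells. Letm1, a protein of the inner mitochondrial membrane, was above background in 2 HSC and 27 cluster cells, and the actin-binding coronin gene Coro2a in 2 and 26. Tspoap1 was above background in no HSC and 24 cluster cells, and the ubiquitin ligase gene Trim13 in 1 and 24. Among the 15 genes lowest in HSC by mean were also Baz1a, a subunit of chromatin remodellers (6 and 27, -7.27), and Dcaf13, a factor of small ribosomal subunit assembly (7 and 28, -7.07).

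Platelet lineage genes did not move together. Of 13 measured, 3 (23.1%) were higher (Vwf, Selp and Gp9) and 6 (46.2%) lower, against 5.34% and 59.3% of all genes. Their median of -0.89 was at 0.00 after quantile normalization and above 0 with equal means. The integrin genes Itgb3 (1 HSC and 22 cluster cells above background, -5.18) and Itga2b (5 and 21, -3.40) were lower in HSC; Itga2b is an early marker of blood-forming cells in the embryo as well as a platelet gene. Vwf, in contrast, was above background in 13 HSC and 3 cluster cells. Alox5 and Cpa3, used by mast cells and other myeloid cells, were above background in no HSC and in 23 and 11 cluster cells.

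Blood transcription factors as a list stood near all genes. Of 28 measured, 2 were higher and 17 (60.7%) lower in HSC, against 59.3% lower of all genes, with a median of -1.09 that turned to 0.39 after quantile normalization and would also be above 0 with equal means. Gfi1 and Erg (1.63) were the higher genes. Ikzf1 (-3.31), Spi1 (-3.18) and Cebpa (no HSC and 12 cluster cells above background) were lower in HSC. Of these, only Ikzf1 remained lower by at least 1 log2 unit under every scaling tried. Runx1, the factor required for blood cells to leave the endothelium, was at -2.76 on the probe set used, at -0.24 on the one detected in most HSC and at 0.67 after quantile normalization, so its direction is not settled. Lmo2 (0.49), Gata2 (-0.65) and Tal1 (-0.62) were above background in most cells of both populations.

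**Figure D4:**
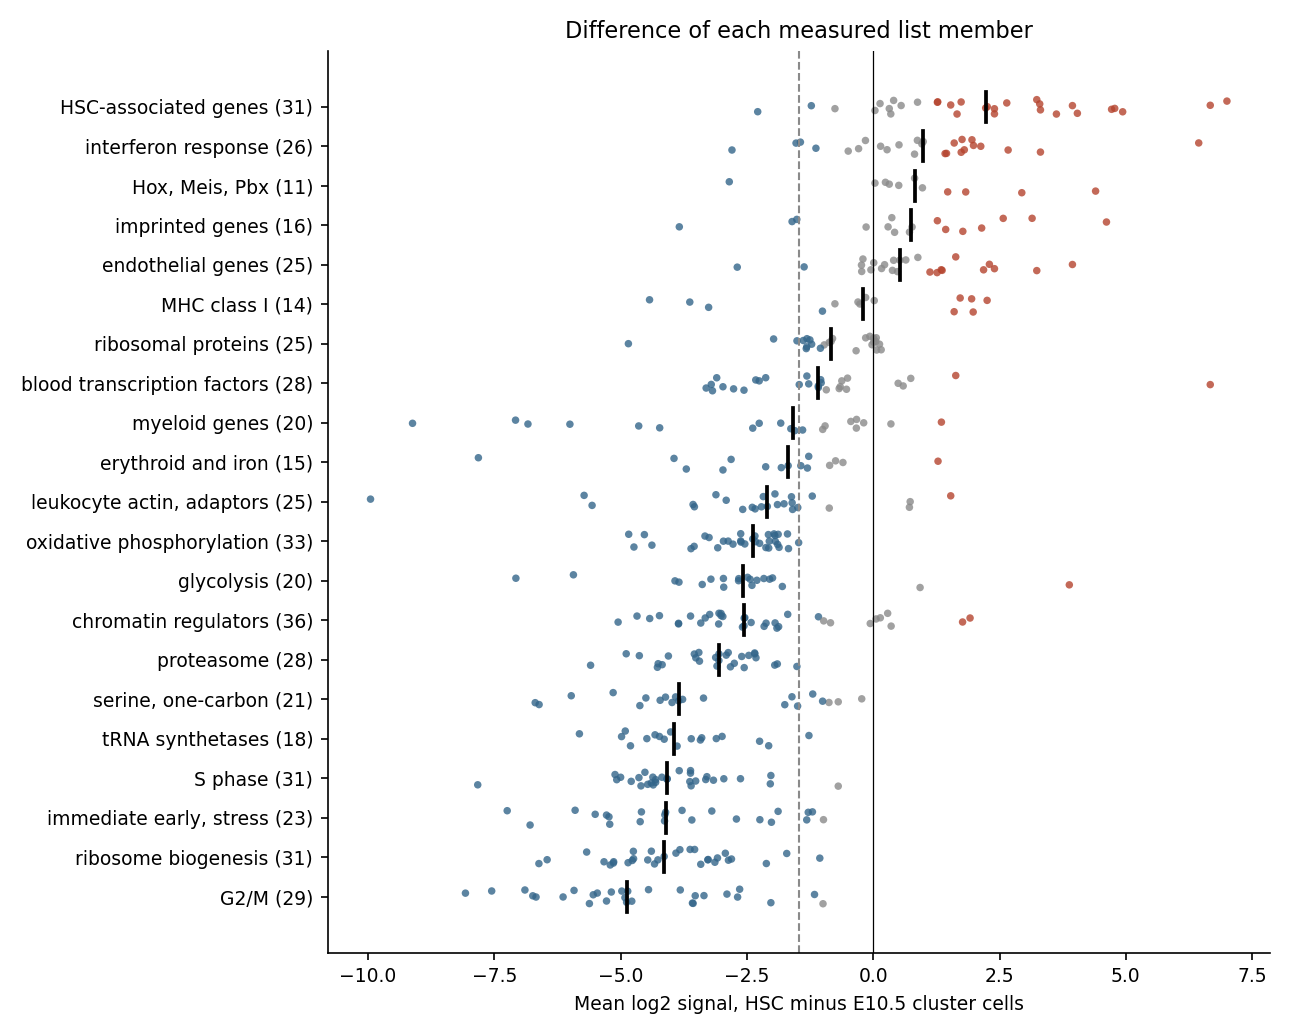
Each point is a measured gene of a list, placed by its mean log2 signal in HSC minus that in E10.5 cluster cells; red points are higher and blue points lower by at least 1, black bars are list medians, and the number of genes is in parentheses. The dashed line is the median over all measured genes, -1.47; HSC-associated genes have a median of 2.23 and G2/M genes one of -4.88.

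Cell division genes were lower in HSC by far more than genes at large. Of 29 measured G2/M genes 28 were lower and none higher, with a median of -4.88, and of 31 S phase genes 30 were lower and none higher, with a median of -4.08. After quantile normalization 24 and 28 were still lower, with medians of -3.19 and -2.37. With all probe sets of a gene averaged the G2/M median was -2.89. Birc5, which encodes the mitotic protein survivin, was above background in 8 HSC and all 28 cluster cells, with means of 4.71 ± 3.84 in HSC and 12.78 ± 1.05 in cluster cells. Cyclin B2, Ccnb2, was above background in 5 HSC and all 28 cluster cells (-7.55), the mitotic kinase Bub1 in 8 and 28 (-6.89), and Rrm2, the ribonucleotide reductase subunit made in S phase, in 6 and 26 (-7.83). Trip13, a remodeller of checkpoint proteins, was above background in 6 and 27.

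The HSC were not uniform in these genes. The limits of 3 and 15 genes were chosen after the counts were seen. Of the 26 HSC, 18 had at most 3 of the 29 G2/M genes above background, 8 had at least 15, and none lay between. Every cluster cell had at least 11, and 27 of 28 had at least 15. By mean signal of the list, 18 HSC lay below every cluster cell and 1 cluster cell lay above every HSC. S phase genes were less clearly split, with 6 to 29 of 31 above background in HSC (median 16) and 18 to 31 (median 28) in cluster cells.

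To show known elements of such genes, promoters of Cdc20, the activator of the anaphase-promoting complex (9 HSC and 28 cluster cells above background, -6.67), and Cdc6, a loader of replication helicases (7 and 23, -4.64), were read in the same way. The cell-cycle homology region, searched as TTTGAA and TTCGAA on both strands, was found in 10 of 25 G2/M genes (40%). It was found in 19.6% of all genes and 14.4% of measured genes. The E2F site, searched as TTTGGCGC and TTTCCCGC on both strands, was found in 6 of 27 S phase genes (22.2%). Its share was 1.51% of all genes and 3.13% of measured genes. The Cdc20 window is chr4:118437344-118437593, minus strand, with the cell-cycle homology region beginning at position -18 from the start site, and the Cdc6 window is chr11:98907901-98908150, plus strand, with the E2F site beginning at -138, both in capitals.
Cdc20: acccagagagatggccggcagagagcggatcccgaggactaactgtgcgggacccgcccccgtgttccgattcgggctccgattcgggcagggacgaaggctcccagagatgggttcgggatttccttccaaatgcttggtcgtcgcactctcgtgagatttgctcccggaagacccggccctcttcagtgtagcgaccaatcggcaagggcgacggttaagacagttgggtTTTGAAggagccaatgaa
Cdc6: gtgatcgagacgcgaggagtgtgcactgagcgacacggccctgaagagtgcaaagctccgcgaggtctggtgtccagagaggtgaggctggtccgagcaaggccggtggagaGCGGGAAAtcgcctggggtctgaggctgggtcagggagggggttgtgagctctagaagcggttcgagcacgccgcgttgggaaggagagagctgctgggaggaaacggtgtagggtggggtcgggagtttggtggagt

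Genes of ribosome biogenesis were lower in HSC in the values as deposited. All 31 measured genes of the nucleolus and of ribosome assembly were lower, with a median of -4.14 (-2.05 and 24 genes after quantile normalization). The E-box through which Myc is known to act, searched as CACGTG, was found in 1 of 27 of these genes with a promoter in the table (3.7%), in 6.86% of all genes and in 10.4% of measured genes. Dkc1, the pseudouridine synthase dyskerin, was above background in 12 HSC and all 28 cluster cells (-6.62), and the nucleolar phosphoprotein Nolc1 in 7 and 26 (-6.45). The smallest difference was that of Npm1, at -1.06, which would be above 0 with equal means. By mean signal of the list, 25 of 26 HSC lay below every cluster cell and 27 of 28 cluster cells above every HSC. The ribosomal proteins themselves were less apart: 10 of 25 were lower and none higher, with a median of -0.83 that was at 0.05 after quantile normalization, and Rplp0 (0.05) and Rps18 (0.01) were near 0.

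Genes for enzymes of amino acid supply were lower too. All 18 measured tRNA synthetases were lower in HSC, with a median of -3.95, and 18 of 21 genes of serine, one-carbon and asparagine synthesis, with a median of -3.85 and none higher. The amino acid transporter gene Slc7a5 was above background in 4 HSC and 27 cluster cells (-6.61). Psat1, an enzyme of serine synthesis, was above background in 12 HSC and 28 cluster cells (-6.69), and asparagine synthetase, Asns, in 12 and 28 (-5.98). The regulator Atf4 was lower as well (-4.11), with 22 HSC and 28 cluster cells above background.

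The element through which Atf4 is known to act, searched as TGATGNAA on both strands, was found in 2 of 18 genes of serine, one-carbon and asparagine synthesis (11.1%), in 3 of 11 tRNA synthetases (27.3%) and in 3.91% of all genes. Its share among measured genes was 2.27%. The Asns promoter (chr6:7693210-7693459, minus strand) is shown as the list gene with the largest difference whose element was found, in capitals and beginning at position -23 from the start site.
Asns: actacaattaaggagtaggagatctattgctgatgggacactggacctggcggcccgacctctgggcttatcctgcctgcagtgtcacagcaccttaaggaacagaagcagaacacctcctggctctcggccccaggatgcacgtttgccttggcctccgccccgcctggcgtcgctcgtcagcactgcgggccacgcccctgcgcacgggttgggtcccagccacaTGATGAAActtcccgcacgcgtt

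Genes of energy metabolism followed the same direction with smaller sizes, near those of housekeeping genes. Of 12 measured housekeeping genes, Gapdh, Pgk1 and Sdha among them, 9 were lower and none higher, with a median of -2.15. The glycolysis median was -2.57. All 33 measured genes of oxidative phosphorylation were lower in HSC, with a median of -2.38 (-0.95 after quantile normalization, where 16 were lower), among them cytochrome c, Cycs (-4.74), and the complex I subunit gene Ndufs1 (-4.84). Of 20 glycolysis genes 18 were lower, led by the lactate carrier Slc16a1 (10 HSC and 28 cluster cells above background, -7.07) and hexokinase 2, Hk2 (7 and 28, -5.93). The one higher gene was Ldhb, the lactate dehydrogenase subunit of oxidative tissues, at 9.84 ± 2.41 in HSC and 5.96 ± 2.55 in cluster cells. Its partner Ldha was at 11.77 ± 0.87 in HSC and 14.20 ± 0.71 in cluster cells. Both subunits were above background in 23 of 26 HSC and in 11 of 28 cluster cells, and the remaining cells of both populations held Ldha alone. All 28 proteasome genes were lower in HSC, with a median of -3.05 (-1.47 after quantile normalization).

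The Myc family showed an exchange between members, noticed after the values were seen. Mycn was above background in 20 HSC and 10 cluster cells, and Myc in 8 and 25. Mycn without Myc was found in 13 of 26 HSC and 3 of 28 cluster cells, and Myc without Mycn in 1 HSC and 18 cluster cells. Their shared partner Max was above background in 7 HSC and 27 cluster cells (-3.73).

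Immediate early and stress genes were lower in HSC, 22 of 23 with none higher and a median of -4.11. The heat-shock genes Hspa1a (3 HSC and 24 cluster cells above background, -7.24) and Hspa1b (2 and 23, -6.79) are near-identical copies whose probes may not tell them apart. Junb was above background in 4 and 26. Such genes respond to tissue handling in many cell types, and the part of the dissociation in these values was not tested. Klf2, a factor of quiescent blood cells and of endothelium under flow, is outside this list. It was above background in 3 HSC and 20 cluster cells.

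Apart from Plek, every HSC lay below every cluster cell in 3 genes. Hspe1 and Hspd1 encode the co-chaperonin and the chaperonin of mitochondria, and Eif2s2 a subunit of a translation initiation factor. Hspe1 ran from 7.78 to 13.65 in HSC and from 13.77 to 15.25 in cluster cells, and Hspd1 from 3.82 to 13.20 in HSC and from 13.52 to 15.20 in cluster cells. Eif2s2 reached at most 12.37 in HSC and was at least 12.57 in cluster cells. All 3 were above background in at least 25 of the 26 HSC, so here the level differed and not the presence.

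Hspe1 and Hspd1 are neighbours transcribed in opposite directions, and in RefSeq one of the Hspd1 start sites lies 216 bases from that of Hspe1. The window before Hspe1 (chr1:55087898-55088147, plus strand) holds overlapping matches to the heat-shock element, searched as GAA, any 2 bases, TTC, any 2 bases and GAA on both strands, in capitals, beginning at positions -89 and -84 from the start site. The element was found in 0.514% of all genes and 0.472% of measured genes. It was found in 0 of the 18 genes of the immediate early and stress list with a promoter, Hspa1a, Hspa1b, Hsph1 and Dnajb1 among them. Only this exact form was searched, so the lack of a match does not show that a gene lacks a heat-shock element. The Hspe1 window was chosen after the values were seen.
Hspe1: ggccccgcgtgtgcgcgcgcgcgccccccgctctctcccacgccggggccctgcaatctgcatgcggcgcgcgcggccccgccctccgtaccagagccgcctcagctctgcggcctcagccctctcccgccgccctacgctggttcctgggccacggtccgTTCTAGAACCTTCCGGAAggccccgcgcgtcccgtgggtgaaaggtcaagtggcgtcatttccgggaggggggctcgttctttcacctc

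Genes of the fetal growth programme, which in mouse blood cells fade with age, were lower in 6 of 7 measured members (85.7%). Over all genes the share was 59.3%. Igf2bp1, an RNA-binding protein of fetal cells, was above background in 2 HSC and 25 cluster cells, and Igf2bp3 in 10 and 27. The RNA-binding protein genes Lin28a and Trim71 were above background in no HSC and in 7 and 12 cluster cells. Hmga2, a chromatin protein of fetal stem cells, was above background in 25 HSC and 28 cluster cells, a difference of -1.92. The list's higher member is Mecom, which is also in the list of HSC-associated genes.

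Among 36 chromatin regulators 27 (75%) were lower, against 59.3% of all genes, and 2, Cbx2 (1.92) and Tet1 (1.77), were higher. The median of these regulators was -2.55, and -0.60 after quantile normalization. The Polycomb genes Ezh2 (-3.85) and Eed (-4.42), the deacetylase Sirt1 (-5.05) and the remodeller Chd7 (3 HSC and 21 cluster cells above background) were lower in HSC. In the Bcl2 family, which decides cell death, 8 of 11 (72.7%) were lower and only Bcl2 itself was higher (1.46). The family median of -1.56 was near the -1.47 over all genes, and was 0.21 after quantile normalization. The pro-death gene Pmaip1 was above background in 2 HSC and 22 cluster cells, and Bid in 11 and 28. Perp, a membrane protein gene induced by p53, was above background in no HSC and 20 cluster cells, a difference of at least 4.23 log2 units in size.

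Genes of quiescence and of FoxO signalling were divided. Of 21 measured, 6 (28.6%) were higher, against 5.34% of all genes, and 8 (38.1%) lower, against 59.3%. The list median was -0.64, against -1.47 over all genes, and 0.20 after quantile normalization. Higher in HSC were Pik3ip1, an inhibitor of phosphoinositide 3-kinase (14 HSC and 3 cluster cells above background), Sesn1 (2.65), Sesn3 (1.87) and Txnip (1.72). The lower genes were in part the immediate early genes Egr1 and Klf6, along with Klf2 (-5.87), Cdkn1a (1 HSC and 14 cluster cells above background) and Btg1 (-5.62). Foxo1 (0.21), Foxo3 (0.20) and Cdkn1b (0.17) stayed within 1 log2 unit.

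Endothelial genes had 10 of 25 measured members (40%) higher and 2 (8%) lower in HSC, against 5.34% and 59.3% of all genes. Their median was 0.53. Both the higher count and this median rest partly on HSC cells 5 and 7, without which 7 were higher and the median was 0.09. The median over cells brought the list to 0.064. The higher genes Esam, Vwf and Robo4 are also in the list of HSC-associated genes. Cdh5, the cadherin of endothelium, was above background in 4 HSC and 5 cluster cells. Over all genes, leaving out both cells gave 538 genes higher and 5949 lower.

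Since HSC had fewer probe sets above background, the 4 cells in the overlap were set side by side. HSC cell 1 had 8489 probe sets above background, and cluster cells 9, 22 and 28 had 8244, 8352 and 8383. Besides HSC cell 4, only HSC cell 1 held Afp, so it may not stand for the HSC at large. HSC cell 1 held Mecom (10.53), Hlf (9.43) and Ifitm3 (11.90) but not Gfi1 or Procr, and 20 of the 31 HSC-associated genes, against 7, 12 and 15 in the cluster cells. Mpo (2.59) and Tfrc (3.12) were below background in it, against 9.39 to 11.36 and 11.10 to 12.31 in the 3 cluster cells, and Plek was at 7.26, against 11.38 to 14.11.

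Division genes in these 4 cells were mixed. HSC cell 1 held all 29 G2/M genes, against 18, 20 and 16 in the cluster cells, which is the reverse of the populations. It held 14 of 31 S phase genes, against 28, 21 and 28. Of the ribosome biogenesis genes it held 22 of 31, against 27, 27 and 25, and of the immediate early and stress genes 7 of 23, against 18, 17 and 19, so these 3 lists were lower in it, as in the populations. It held 15 of 18 tRNA synthetases, against 17, 15 and 15, and so was below cluster cell 9 only. Of the serine, one-carbon and asparagine genes it held 11 of 21, against 16, 14 and 14. A single HSC gives no spread for these values.

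The E12.5 cluster cells, 16 cells sorted with the same gate as those of E10.5 from the aorta-gonad-mesonephros region of wild-type embryos, were set beside both populations. These cells were mixed: 3 of the 16 held all 7 measured macrophage genes, and the list's mean signal per cell ran from 2.94 to 13.56, with an SD of 3.24, against 1.12 between E10.5 cluster cells. The part of these cells in the shares below was not tested. For Mecom, 3 of 28 cells were above background at E10.5, 1 of 16 at E12.5 and 23 of 26 among HSC. Procr was above background in 3, 0 and 17 cells in the same order, and Hlf in 5, 2 and 21. For these genes the E12.5 cluster cells stood with those of E10.5. Gfi1 had 3, 4 and 20 cells above background.

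Genes lower in HSC took different places at E12.5. For Plek, 28 of 28 cells were above background at E10.5, 15 of 16 at E12.5 and 3 of 26 among HSC, and for Fcer1g 27, 14 and 4. Mpo was above background in 27, 7 and 2 cells, and Slc16a1 in 28, 8 and 10. The median number of the 31 ribosome biogenesis genes above background per cell was 29 at E10.5, 22 at E12.5 and 18 in HSC, while that of the 29 G2/M genes was 24.5, 26 and 2.

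**Figure D5:**
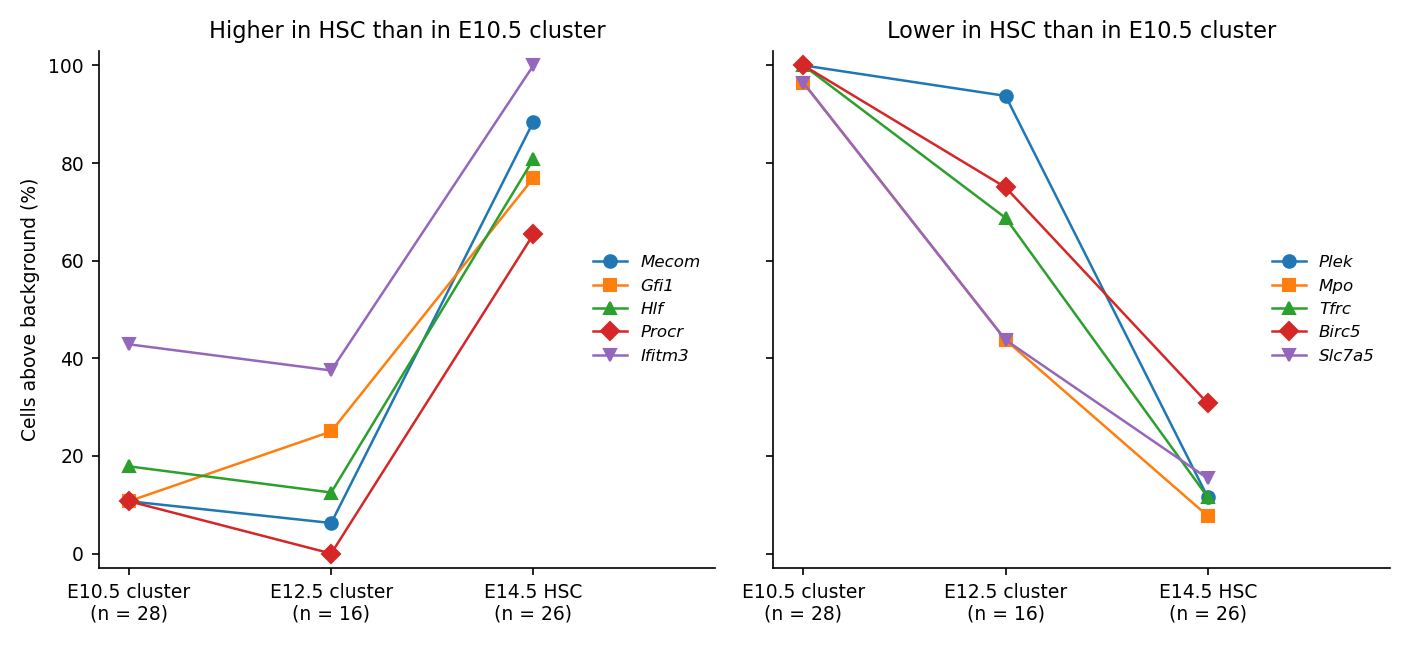
Percentage of cells above background for 5 genes higher (left) and 5 genes lower (right) in HSC than in E10.5 cluster cells, in 28 E10.5 cluster cells, 16 E12.5 cluster cells and 26 E14.5 HSC; lines join the populations. Mecom, Hlf and Procr are at or below their E10.5 share at E12.5, while the shares for Mpo and Tfrc are between those of the other populations.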

How the data were processed

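Each array held the amplified RNA of 1 cell. Per the submitters' processing notes, the authors made the deposited log2 values with GCRMA and the affy package; their versions are not given in the sources used here. That method removes a background predicted from probe sequence, so undetected probe sets pile up near 2 to 3. A pair of spike-in control probe sets held 1 shared value, 12.64 in 82 and 9.5 in 65 of the 85 arrays, a step that no source used here states. The report uses the values as deposited. Of 45101 probe sets 34958 had 1 gene symbol in the platform annotation and were used. For a gene with several, the one of highest mean was taken, with the 5 populations weighted equally. Promoters came from RefSeq (GRCm38.p6).

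Differences are mean log2 in HSC minus mean log2 in E10.5 cluster cells. For a gene above background in no cell of 1 population, the size given as "at least" is the other population's mean minus 5. Named genes were the 15 largest differences each way, gate and sex-linked genes aside, where 50% or more of the higher population's cells exceeded background, the switched genes (the 10 largest by share where there were more), 4 markers (Gfi1, Ifitm3, Mpo, Tfrc) and members of gene lists. Members and lists were chosen with earlier results of these data known. The calculation was tested on simulated data. Python 3.11.15, numpy 2.4.6 and pandas 2.3.3 were used. The number of arrays limits the precision.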

Additional observations from a re-analysis of the deposited data

How the results depend on the processing

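No paired analysis was possible because the results come from no test and each replicate number names a single cell. Quantile normalization gave 2141 genes higher and 2824 lower in HSC and an all-gene median of -0.12. Under it list medians turned to 0.39 for blood transcription factors, 0.76 for mast cell genes and 0.21 for the Bcl2 family, and Adgrg1, Runx1, Myb and Ifngr1 to 0.20, 0.67, 0.50 and 1.14. The other medians that moved under it were 1.96 for interferon response, 1.28 for MHC class I, -2.37 for S phase, -1.83 for serine and one-carbon genes, -2.05 for ribosome biogenesis, 1.02 for the Myc family, -0.95 for oxidative phosphorylation, -0.92 for glycolysis, 0.045 for ribosomal proteins, -1.63 for the fetal programme, -0.60 for chromatin regulators, 0.68 for cytokine receptors, -0.31 for chemotaxis and adhesion, -2.43 for immediate early and stress genes, -1.47 for the proteasome, -2.18 for tRNA synthetases and -0.60 for leukocyte actin genes. Quantile normalization gives undetected probe sets of HSC values from the detected range of cluster cells, so shares of cells were not recomputed there. Equal means over the measured genes, added after the data were seen, gave 3113 higher, 2939 lower and a median of 0.090.

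Averaging all probe sets of a gene gave 313 genes higher, an all-gene median of -0.95, and medians of -1.46 for the fetal programme and -1.56 for chromatin regulators. The median over cells gave 270 genes higher and medians of 0.26 for HSC-associated genes, 0.070 for interferon response, -7.25 for G2/M, -0.56 for the fetal programme and -3.02 for the Bcl2 family, and it put Gata1 at 0.037, Cpa3 at 0.029, Fut4 at 0.034, Lin28a at 0.035, Klf1 at 0.042 and Cd48 at 0.028. Without cells that held Xist (25 HSC and 14 cluster cells left) the fetal programme stood at -1.89. With no filter on low values the all-gene median was 0.029. A size of 2 log2 units left 157 genes higher and 3940 lower. Counting the 4750 brightest probe sets of each cell gave 8 genes switched on and 16 off, and shares of 90% and 10% gave 0 and 4. Leaving out single cells gave 528 to 576 genes higher, 5849 to 6015 lower, 4 to 6 switched on, 71 to 93 switched off and an all-gene median of -1.52 to -1.42 and turned no difference of 1 log2 unit or more. Near 0 signs did change, with Meis1 from -0.21 to 0.36, Prdm16 from -0.17 to 0.39, Cdh5 from -0.07 to 0.53 and Ifnar1 from -0.35 to 0.08, and likewise B2m, Cdkn1b, Foxo1 and Rps18. Keeping the 17 HSC and 22 cluster cells in which both control probe sets held their shared value gave 570 genes higher and 5806 lower, a median of -0.86 for myeloid genes and one of 0.30 for imprinted genes. Except where a value is given here or the alternative's construction shows it, the cause was not tested.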

Other observations

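Ddx4, an RNA helicase best known from germ cells, was above background in 11 of 26 HSC and 1 of 28 cluster cells, a difference of 3.20. Prdm1 and Ifitm3, also used as germ cell markers, went in opposite directions, with Prdm1 above background in no HSC and 4 cluster cells and Ifitm3 in 26 and 12. Dppa3 was above background in no cell of either population. GTPase genes of the Gimap family, known from lymphocytes, were higher in HSC in all 3 list members measured: Gimap6 was above background in 26 HSC and 13 cluster cells (4.61), Gimap1 in 25 and 18 (2.67) and Gimap4 in 9 and 5 (1.65). Other early lymphoid genes of the same list did not follow, with Flt3 in 7 HSC and 7 cluster cells and the chromatin organiser Satb1 in 6 and 20 (-3.85).

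Chemotaxis and adhesion genes and cytokine receptor genes were lower in HSC no more often than the 59.3% of all genes. Of 29 measured genes of chemotaxis and adhesion 16 (55.2%) were lower and 4 higher, among them Itga6 (12 HSC and 27 cluster cells above background, -3.91) and Itgb1 (10 and 26, -3.91). Of 21 cytokine receptor genes 8 (38.1%) were lower and 1, Cd27, higher, and the list median was 0.68 after quantile normalization; Csf2rb, the shared chain of several myeloid cytokine receptors, was above background in 6 HSC and 19 cluster cells (-4.23). Cholesterol synthesis had 13 of 19 measured genes (68.4%) lower and none higher, led by Hmgcs1 (11 HSC and 24 cluster cells above background, -4.28). Its median of -2.37 was near the -2.15 of housekeeping genes. Leukocyte actin regulators and adaptors had 21 of 25 (84%) lower and 1 higher, with a median of -2.10, also near that of housekeeping genes. The surface antigen gene Cd52 was above background in 4 HSC and 22 cluster cells (-5.72).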
